A study of Mus musculus with 10 samples.

Results

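The 72 genes described here encode secreted and cell-surface metalloproteases and their inhibitors, namely matrix metalloproteinases (MMP), proteins with a disintegrin and a metalloprotease domain (ADAM), their thrombospondin-repeat relatives (ADAMTS and ADAMTS-like), and tissue inhibitors of metalloproteinases (TIMP). They were chosen by symbol alone, as every gene named Mmp, Timp, Adam, Adamts or Adamtsl followed directly by a number, and they make up 72 of the 18384 genes listed in the mRNA-seq libraries. The set holds 22 MMP, 22 ADAM, 19 ADAMTS, 5 ADAMTS-like and 4 TIMP genes. The study used adipocyte precursors (APs) from the subcutaneous white adipose tissue of C57BL/6J mice and examined the effect of IL-4, a type 2 cytokine, on them. Cells positive for CD45 or CD31 were removed and SCA-1-positive cells were kept and grown in serum-containing medium, and IL-4 was added one day after seeding. Both groups were cultures of cells from these mice, 3 without IL-4 (control replicates 1 to 3) and 3 incubated with it for 4 days (IL-4 replicates 4 to 6). The replicates were described as biological, and p-values measure the spread among these 6 cultures.

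MMPs cut collagens, gelatin, elastin and proteoglycans, and most are made as inactive precursors that another protease has to cut. ADAMs mainly release the outer parts of membrane proteins, ADAMTS enzymes trim procollagens and cleave matrix proteoglycans, ADAMTS-like proteins lack the protease domain, and TIMPs block the active sites of the enzymes. In adipose tissue these proteins remodel the collagen network around precursors and fat cells as the tissue grows.

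The libraries held 28526782 to 29057787 expected counts, the read numbers that RSEM assigns to each gene. Members took 1.01% to 1.05% of these counts in control libraries and 1.31% to 1.36% in IL-4 libraries. Levels of different genes are compared as FPKM, fragments scaled for transcript length and library size, and differences between groups as log2 fold changes (IL-4 over control) of counts scaled by TMM. Without that scaling the median over all genes tested moves from 0.00 to −0.17, and the share of counts held by the top 10 genes was 9.14% to 9.59% in control but 13.8% to 15.5% in IL-4 libraries. Within each group 1 library stood apart by transcript length. IL-4 replicate 6 lay a median of 0.18 above its group mean on the log2 scale for the 3505 genes with transcripts up to 1833 bases and 0.19 below it for the 3503 genes with transcripts of 4288 bases or more, and control replicate 3 deviated the same way by 0.09 and 0.08.

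AP markers were present in both groups, and 11 of 12 had a mean above 1 FPKM over the 6 libraries. Col1a1 averaged 3307 FPKM in control and 3690.3 in IL-4 libraries, and Pdgfra was at 53.4 to 57.1 and 59.5 to 77.4 FPKM. Of 12 AP markers, 8 rose, among them Pdgfra and Col1a1, and 2 fell with IL-4, Lum among them. The call of Col1a1 was lost in 6 of 14 alternative fits. Markers of macrophages were present too, although CD45-positive cells had been removed. Their 13 genes summed to 3572 to 4602 FPKM in control and 1274 to 1740.0 FPKM in IL-4 libraries, none was at 0 in any library, 12 fell and Cd68 did not pass the test. In bulk RNA fewer cells of a type and less RNA per cell cannot be told apart.

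Of the 72 members, 57 passed the filter on low counts. After IL-4, 25 of them were higher (43.9%, against a background of 19.0% of the 14009 genes tested) and 15 were lower (26.3%, against 18.4%), at an adjusted p under 0.05 (quasi-likelihood test of edgeR, Benjamini-Hochberg adjustment). Beyond a 2-fold change, 10 members rose (17.5%, against 5.77%) and 7 fell (12.3%, against 5.26%). The median log2 fold change was 0.27 over the 57 members and 0.00 over all genes tested. In normalized counts every IL-4 library lay above every control library for 28 members (background 25.2%) and below for 15 (background 25.3%). Without IL-4 replicate 6, 33 members were higher and 14 passed a 2-fold rise, among them all 10 of the members counted above. Over all genes, 835 of 14140 tested passed a 2-fold rise in that fit, against 809 of 14009 with all libraries.

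**Figure D1:**
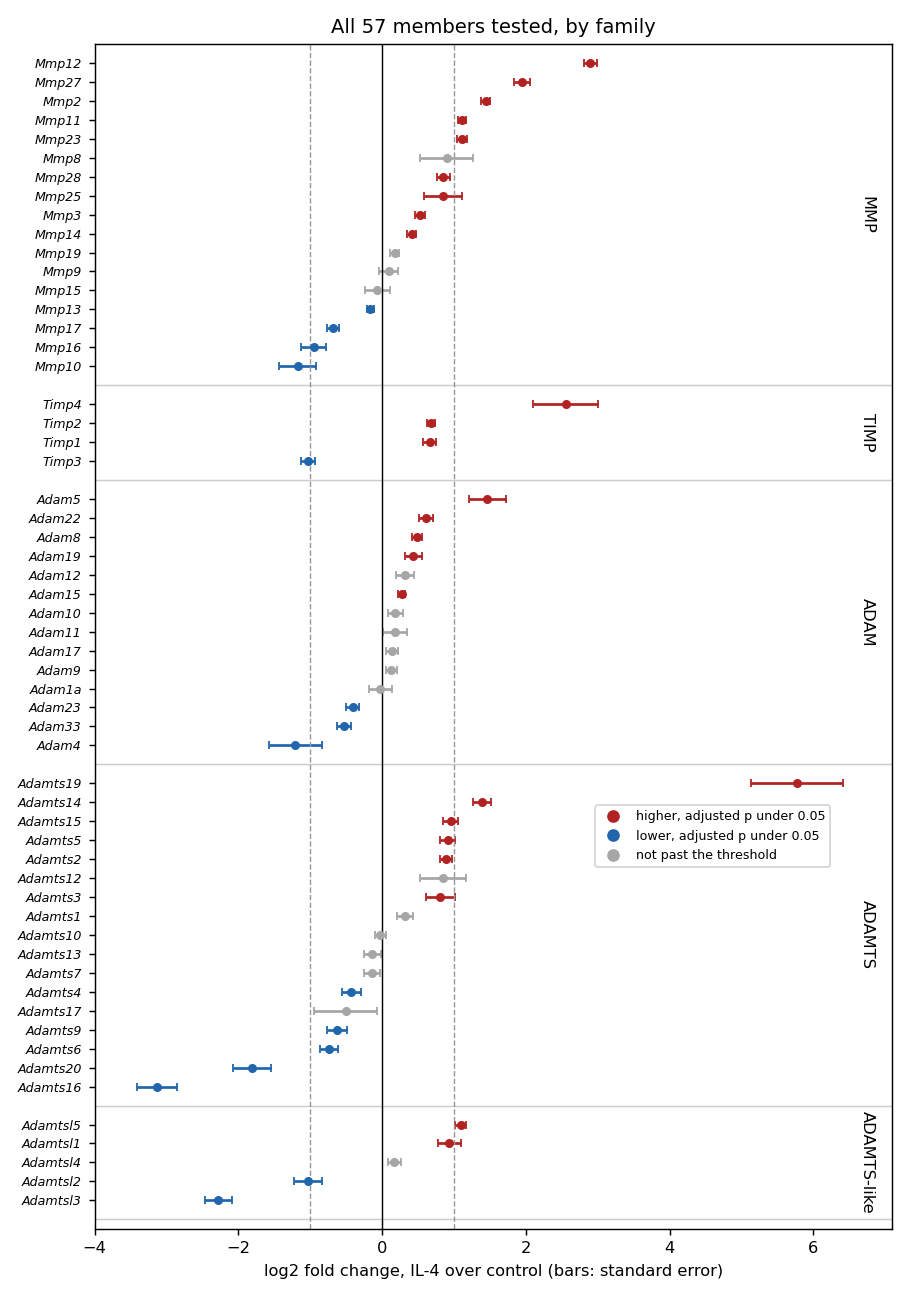
Log2 fold change of each of the 57 tested members, IL-4 over control, grouped by family, with bars for the standard error and dashed lines at a 2-fold change. MMP genes lean to the right, with 9 higher and 4 lower, while ADAMTS genes split into 6 higher and 5 lower. The point for Adamts19 is a fitted value against control libraries with 0 or 1 read and carries no exact size.

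Summed over its genes, the MMP family gained most in level. The 22 MMP genes summed to 1114 ± 25.6 FPKM (SD, n = 3) in control and 2047 ± 67.4 FPKM in IL-4 libraries, a ratio of 1.84. The 4 TIMP genes summed to 1011 ± 12.4 and 991 ± 33.3 FPKM, a ratio of 0.98. With TMM scaling of the FPKM these ratios become 2.07 and 1.10, so the direction for the TIMP sum depends on the scaling. The ADAM sum went from 474 to 511 FPKM, the ADAMTS sum from 249 to 341 FPKM and the ADAMTS-like sum from 18.8 to 29.4 FPKM. Mmp2, Mmp12 and Mmp11 account for most of the rise in the MMP sum.

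Mmp2 (gelatinase A, which degrades denatured collagen and basement membrane) had the highest mean level of all members over the 6 libraries, and the highest in every IL-4 library. Its FPKM was 359.6, 336 and 344 without IL-4 and 832, 829.8 and 842 with it. All 3 IL-4 libraries lay far above the controls, and the replicates of each group were close together. The log2 fold change was 1.44 (SE 0.06, adjusted p = 1.18e-06), a 2.72-fold rise. Mmp9, the other gelatinase, was at 1.11 to 1.40 FPKM in all 6 libraries and did not pass the test (log2 fold change 0.09, SE 0.13).

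Mmp14, the membrane-anchored collagenase that activates the Mmp2 precursor at the cell surface, had the second-highest mean level over the 6 libraries. It rose from 375 ± 9.49 to 441 ± 6.97 FPKM, with a log2 fold change of 0.41 (SE 0.06, adjusted p = 0.00084). The other membrane-type MMPs were far lower, and they moved in both directions. Mmp17 fell by 0.68 and Mmp16 by 0.95 on the log2 scale. Mmp25, with 9 to 20 counts per library, rose by 0.85 (adjusted p = 0.0352), a call lost in DESeq2 (0.126) and when any 1 library other than IL-4 replicate 6 was left out. Mmp15 did not pass the test, and Mmp24 had at most 4 counts in any library.

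Mmp12, macrophage elastase, showed the largest fitted rise of all members apart from Adamts19, whose control libraries held 0 or 1 read. Its FPKM was 40.4, 36.7 and 36.6 in control and 223, 248 and 281 in IL-4 libraries. No control library came near the IL-4 range. The log2 fold change was 2.90 (SE 0.09, adjusted p = 3.01e-07), or 7.45-fold, and it ranged from 2.69 to 2.98 over the alternatives tried. Macrophages are a known source of this enzyme, and most of their markers went the other way. Of the 13 markers 8 fell beyond a 2-fold change and 4 fell by less, with a median log2 fold change of −1.05 over the list. Lyz2 was at 2469 to 3225 FPKM in control and 673 to 937 FPKM in IL-4 libraries. Cx3cr1 had 1484 to 1853 counts against 3 to 5. Genes known from osteoclasts and other multinucleated macrophage-type cells rose, 3 of 4 tested (Acp5 by 3.13, Ctsk by 1.91 and Ocstamp by 4.27 on the log2 scale), while Oscar did not pass the test. The part of these cell markers in the result for Mmp12 was not tested.

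The stromelysins cut proteoglycans, laminin and other matrix proteins and can activate further MMPs. Mmp11 (stromelysin-3) had FPKM of 119, 112 and 113 in control and 215, 212 and 232 in IL-4 libraries, without overlap. Its log2 fold change was 1.11 (SE 0.06, adjusted p = 3.88e-06). Mmp3 (stromelysin-1) rose from 113 ± 8.45 to 145 ± 10.2 FPKM, by 0.53 on the log2 scale (SE 0.07). Mmp10 (stromelysin-2) was the only stromelysin to fall, with 44, 34 and 28 counts in control and 14, 12 and 16 in IL-4 libraries. Every IL-4 library lay below every control for Mmp10, and the log2 fold change was −1.18 (SE 0.26, adjusted p = 0.00832), or −0.99 without control replicate 1. Mmp3 and Mmp10 are close relatives, and the expected counts of both were not whole in 3 libraries, as happens where RSEM divides a read between genes.

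Among the remaining MMPs, Mmp23, a membrane-bound enzyme, had FPKM of 41.7, 39.0 and 42.9 in control and 77.3, 72.7 and 86.3 in IL-4 libraries. All 3 IL-4 values lay well above the controls, with a log2 fold change of 1.11 (SE 0.07, adjusted p = 1.1e-05). Mmp27 had 81, 74 and 86 counts in control and 273, 250 and 313 in IL-4 libraries. The groups were well apart, with a log2 fold change of 1.95 (SE 0.12, adjusted p = 7.59e-06). Mmp28 (epilysin) rose by 0.85. Mmp13, the main interstitial collagenase of mice, fell from 45.9 ± 0.624 to 36.4 ± 1.38 FPKM, with a log2 fold change of −0.16 (adjusted p = 0.0384) whose call was lost when any 1 library other than IL-4 replicate 6 was left out. Mmp8, the neutrophil collagenase, had 16, 52 and 31 counts in control and 50, 67 and 49 in IL-4 libraries and did not pass the test, except without control replicate 2 (adjusted p = 0.0181) or without IL-4 replicate 6 (0.0459). Of 8 neutrophil markers, Cxcr2 alone had more than 5 counts in any library and 3 were not listed. Mmp19 was at 24.2 to 25.8 FPKM in all 6 libraries. In scaled counts its log2 fold change was 0.17 (adjusted p = 0.0528), which did not pass the test, though it did without IL-4 replicate 6.

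**Figure D2:**
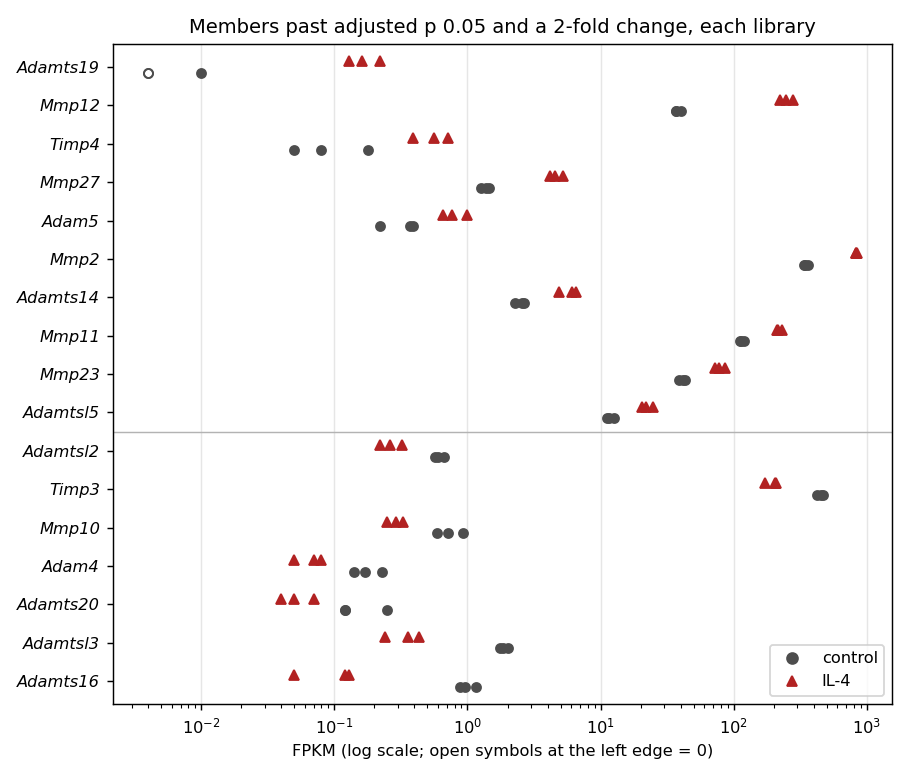
FPKM of the 17 members past an adjusted p of 0.05 and a 2-fold change, on a log axis, with 1 symbol per library (circles, control; triangles, IL-4) and a line between the 10 that rose and the 7 that fell. No member's groups overlap, and the levels reach from 0 FPKM (Adamts19, open symbols) to 842 FPKM (Mmp2).

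Of the 22 MMP members, 9 lie side by side. In RefSeq on GRCm38.p6 (mm10), 10 MMP genes follow one another with no other protein-coding gene between them at chr9:7272514-7699585, in the order Mmp13, Mmp12, Mmp1b, Mmp3, Mmp1a, Mmp10, Mmp8, Mmp27, Mmp20 and Mmp7. Neighbors moved in different directions and differed in level by orders of magnitude. Mmp12, Mmp3 and Mmp27 rose, Mmp13 and Mmp10 fell, and Mmp8 did not pass the test. Mmp1b had 8, 6 and 5 counts in control and 2, 3 and 3 in IL-4 libraries and was not tested, Mmp1a and Mmp7 had 1 count in 1 control library each, and Mmp20 was not listed.

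**Figure D3:**
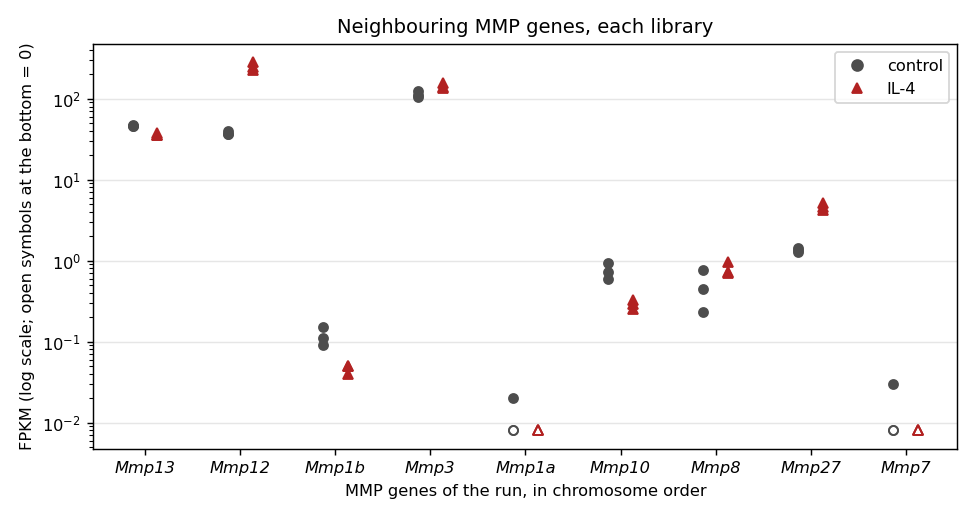
FPKM in each library (log axis) of the 9 listed genes of the MMP run on chromosome 9, in chromosome order. Between Mmp13, which fell slightly, and Mmp3, which rose, Mmp12 climbed to 223 to 281 FPKM, while Mmp1b, Mmp1a and Mmp7 stayed at or below 0.15 FPKM, open symbols standing for 0.

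The start regions of these neighbors share 2 short sequence elements, which are shown because genes that hold both moved in opposite directions. AP-1, the Jun and Fos dimer, binds TGAGTCA, and the TATA box places the start of transcription. All 9 listed genes of the run have promoters in the RefSeq table (250 bases before to 50 after each start), and 7 of them hold TGAGTCA on either strand followed by TATAAA, while Mmp8 and Mmp27 hold no TGAGTCA. In the windows below, printed 5′ to 3′ on the strand of the gene, capitals mark the 2 elements. The window of Mmp12 comes from the second of its 2 annotated starts, and that of Mmp13 holds the AP-1 site as its reverse complement.
Mmp13, chr9:7272471-7272508, plus strand, fell: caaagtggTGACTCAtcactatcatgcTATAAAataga
Mmp12, chr9:7347322-7347388, plus strand, rose: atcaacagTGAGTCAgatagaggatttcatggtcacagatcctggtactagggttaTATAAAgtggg
Mmp3, chr9:7445768-7445825, plus strand, rose: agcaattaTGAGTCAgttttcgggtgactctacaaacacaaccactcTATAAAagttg
Mmp10, chr9:7502271-7502323, plus strand, fell: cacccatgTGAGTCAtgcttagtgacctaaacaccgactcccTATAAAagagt
The first bases of the elements lie 19 apart in Mmp13, 48 in Mmp12, 39 in Mmp3 and 34 in Mmp10. Counted from the annotated start, TATAAA begins at −16 in Mmp13, 5 in Mmp12, −7 in Mmp3 and −29 in Mmp10. In Mmp12 it thus lies past the annotated start, and whether these matches act as TATA boxes was not tested.

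Over all members, 46 had a promoter in the table, and 9 of these held TGAGTCA, against 5.20% of the 32851 promoters of the table and, counted by gene as the members are, 4.72% of the 11077 tested genes with a promoter. Besides the 7 of the chromosome 9 run these were Adam19 and Adam1b, 2 of the 37 members with a promoter outside the run. The 46 include members that were not tested, Mmp1a, Mmp1b, Mmp7 and Adam1b among them, while the 11077 genes were all tested. TATAAA on either strand was found in 11 of the 46, against 13.6% of all promoters and 8.85% of those genes, counted in the same way. In Mmp8 the match was the reverse complement. The STAT6-type element, TTC and GAA on either side of 4 bases, was found in 2 of the 46 (Adam19 and Adam25), against 6.95% of all promoters and 6.63% of those genes, and in none of the 12 members with a promoter that passed a 2-fold change. The like element with 3 bases between was found in 2 of the 46, Adam21 and Mmp23, of which Mmp23 rose beyond a 2-fold change. It was found in 8.30% of all promoters and 8.33% of those genes. These matches describe the letters in this window only. Jun, an AP-1 subunit, rose from 34.6 ± 0.569 to 117 ± 1.68 FPKM (log2 fold change 1.93), and Fos did not pass the test. Of other AP-1 subunits Fosl2 fell, by −0.44 to −0.28 on the log2 scale as each library was left out, while Fosl1 and Jund rose. Their calls were lost in 2 (Fosl2), 9 (Fosl1) and 5 (Jund) of 14 alternatives.

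Among the inhibitors, the TIMPs changed places. Timp3, the matrix-bound inhibitor that also blocks ADAM17 and the aggrecan-cleaving ADAMTS enzymes, had FPKM of 449, 468 and 425 in control and 203, 207 and 170.2 in IL-4 libraries. It was the highest TIMP in every control library and the lowest of Timp1 to Timp3 in every IL-4 library. Its log2 fold change was −1.03 (SE 0.10, adjusted p = 0.000101), which lies just past a 2-fold change and came to −0.93 without IL-4 replicate 6 and −0.99 without control replicate 2.

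Timp1 and Timp2, both soluble inhibitors, rose. Timp1 had FPKM of 290.3, 274 and 299.8 in control and 380.0, 364 and 466 in IL-4 libraries, a log2 fold change of 0.66 (SE 0.09, adjusted p = 0.000669). IL-4 replicate 6 was the highest, yet all 3 lay above the controls. Timp2, which also takes part in the activation of Mmp2 by Mmp14, had FPKM of 280.3, 274 and 272 in control and 395, 392 and 391 in IL-4 libraries. The Timp2 values barely varied within a group, with a log2 fold change of 0.69 (SE 0.06, adjusted p = 4.64e-05). As a share of the summed TIMP FPKM, Timp3 went from 44.2% ± 1.71 (SD, n = 3) to 19.6% ± 2.67, Timp1 from 28.5% ± 1.54 to 40.6% ± 4.12 and Timp2 from 27.3% ± 0.262 to 39.7% ± 1.45.

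Timp4 was rare, with 3, 7 and 2 counts in control and 15, 28 and 22 in IL-4 libraries. The groups did not overlap, and the log2 fold change was 2.55 (SE 0.46, adjusted p = 0.00297), from 2.23 to 3.21 as each library was left out. It gave at most 0.0746% of the TIMP FPKM. Timp1, Timp3 and Timp4 lie within the spans of the synapsin genes Syn1, Syn3 and Syn2, and whether reads were counted by strand was not given in the sources used here. Syn1 and Syn3 had at most 173 and 53 counts in any library, far fewer than Timp1 and Timp3, while Syn2 had 1 to 9, so that for Timp4 alone the host gene was within reach of its counts.

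**Figure D4:**
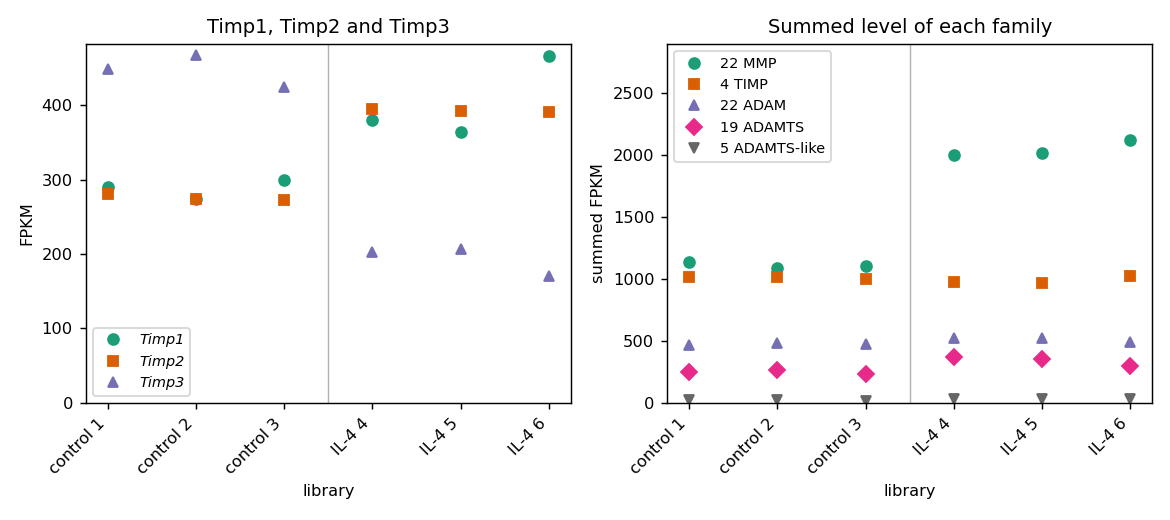
Left, FPKM of Timp1, Timp2 and Timp3 in each library, and right, FPKM summed over each family in each library (22 MMP, 4 TIMP, 22 ADAM, 19 ADAMTS and 5 ADAMTS-like genes). Timp3 drops below both other TIMPs in the IL-4 libraries while the TIMP sum averages 1011 FPKM in control and 991 FPKM in IL-4 libraries, and the MMP sum climbs from 1114 to 2047 FPKM on average.

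All 3 procollagen N-proteinases of the ADAMTS family, which remove the amino-terminal propeptide of fibrillar collagens, rose. Adamts2, the most abundant of them, went from 78.5 ± 2.78 to 129 ± 10.8 FPKM (log2 fold change 0.89, SE 0.08, adjusted p = 0.000101). Adamts14 had 388, 375 and 336 counts in control and 961, 903 and 729 in IL-4 libraries. The IL-4 counts were far above the controls in each library, with a log2 fold change of 1.39 (SE 0.13, adjusted p = 8.16e-05). Adamts3, with 71 to 85 counts in control and 99 to 155 in IL-4 libraries, rose by 0.81 (adjusted p = 0.0149) and lost its call without control replicate 1 or 3 and with limma on FPKM. Of their collagen substrates, Col3a1 rose from 2181 to 5001 FPKM (log2 fold change 1.37). Col1a2 rose by 0.43, a call lost on FPKM with limma (0.25), and Col1a1 by 0.33, a call lost with library totals (0.16), with limma and without control replicate 2 or 3 or IL-4 replicate 5.

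The 7 ADAMTS enzymes that cleave aggrecan, versican and related proteoglycans split, with 2 higher, 3 lower, 1 not past the test and 1 not tested. Adamts5 rose from 49.0 ± 5.18 to 81.7 ± 7.53 FPKM (log2 fold change 0.91) and Adamts15 from 11.5 ± 0.646 to 19.7 ± 2.44 FPKM (0.95). Adamts9 fell by 0.63, and Adamts4 by 0.43, a call lost without control replicate 1 or 2 or IL-4 replicate 5 (adjusted p up to 0.119). Adamts20 had 25, 23 and 23 counts in control and 7, 6 and 5 in IL-4 libraries, without overlap, and fell by 1.81 on the log2 scale (SE 0.26, adjusted p = 0.00105). Adamts1, next to Adamts5 on chromosome 16, did not pass the test (log2 fold change 0.32, adjusted p = 0.0634), though it did in DESeq2 (0.0368) and without IL-4 replicate 6 (0.00122). Adamts8, next to Adamts15 on chromosome 9, had 5, 9 and 9 counts in control and 2, 4 and 4 in IL-4 libraries and was not tested. The versican gene, Vcan, did not pass the test.

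Of the other ADAMTS genes, Adamts16 fell most of all members, with 124, 163 and 134 counts in control and 7, 19 and 17 in IL-4 libraries. Its control level of 0.997 ± 0.146 FPKM was already low, and the log2 fold change was −3.13 (SE 0.27, adjusted p = 6.33e-05). Adamts19 showed the opposite pattern, with 0, 0 and 1 count in control and 29, 18 and 21 in IL-4 libraries. Taking 3 counts per control library as the floor, its level with IL-4 was at least 8.42-fold higher (adjusted p = 0.000225). Adamts6 fell by 0.74. Adamts12, which cleaves cartilage oligomeric matrix protein, had 3102, 2938 and 1263 counts in IL-4 replicates 4, 5 and 6 and 1212 to 1763 in control libraries. Its call turned on IL-4 replicate 6, with a log2 fold change of 0.85 (adjusted p = 0.0739) over all libraries and 1.17 (2.16e-05) without that one. Adamts18, with 5, 1 and 0 against 10, 14 and 11 counts, fell under the filter. Adamts7, Adamts10, Adamts13 and Adamts17 did not pass the test.

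ADAMTS-like proteins bind to microfibrils and other matrix without cutting it, and 2 of the 5 rose while 2 fell. Adamtsl5 had FPKM of 12.6, 11.6 and 11.2 in control and 20.6, 22.0 and 24.7 in IL-4 libraries. The groups were clearly apart, with a log2 fold change of 1.09 (SE 0.08, adjusted p = 2.07e-05). Adamtsl1 rose by 0.94. Adamtsl3 had 384, 419 and 361 counts in control and 90, 75 and 50 in IL-4 libraries, a log2 fold change of −2.28 (SE 0.19, adjusted p = 4.81e-05). No IL-4 library came near the controls. Adamtsl2, which binds fibrillin-1 and the TGF-β binding protein LTBP1, had 52, 61 and 55 counts in control and 24, 20 and 30 in IL-4 libraries. It lay just past a 2-fold fall (log2 fold change −1.03, SE 0.19, adjusted p = 0.00396), and short of it without control replicate 2 (−0.95) or IL-4 replicate 5 (−0.90).

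Of 14 ADAM genes tested, 5 rose, 3 fell and 6 did not pass the test, with a median log2 fold change of 0.18. The most abundant were Adam8 and Adam9. Adam8, a sheddase of leukocytes and other cells, rose from 97.4 ± 7.39 to 121 ± 6.47 FPKM (log2 fold change 0.49, SE 0.07, adjusted p = 0.000878), against the direction of the macrophage markers, whose part in this result was not tested. Adam9 was at 108 to 113 FPKM in control and 98.7 to 113 in IL-4 libraries (log2 fold change 0.13, adjusted p = 0.211). The main sheddases of TNF and Notch ligands, Adam10 and Adam17, were at 42.5 ± 2.36 and 26.7 ± 1.23 FPKM in control and at 42.8 ± 5.25 and 26.1 ± 2.06 FPKM in IL-4 libraries, and neither passed the test. Adam9, Adam10, Adam12 and Adam17 passed it without IL-4 replicate 6, with log2 fold changes from 0.20 to 0.46.

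Of the ADAMs, only Adam5 and Adam4 passed a 2-fold change, both genes best known from testis and read here at low depth. Adam5 had 17, 29 and 27 counts in control and 48, 57 and 77 in IL-4 libraries, without overlap (log2 fold change 1.46, SE 0.26, adjusted p = 0.00275). Adam4 had 12, 10 and 17 counts against 6, 4 and 5, a log2 fold change of −1.20 (adjusted p = 0.0321) whose call was lost in DESeq2 (0.11), with no low-count filter and when any 1 library other than control replicate 2 was left out. Adam22, a relative without protease activity, rose by 0.61 on the log2 scale, and the similarly inactive Adam23 fell by 0.41. Adam33 fell by 0.53. Adam19 rose by 0.43, a call lost with library totals (0.26) and without control replicate 1 or 3 or IL-4 replicate 4 or 5, and Adam15 by 0.27, a call lost with library totals (0.10) and with limma on FPKM (0.11).

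Outside the 17 members past a 2-fold change, 15 rose by 0.27 to 0.95 and 8 fell by 0.16 to 0.95 on the log2 scale. The largest of these rises were Adamts15, Adamtsl1, Adamts5, Adamts2 and Mmp28, and the largest falls were Mmp16, Adamts6, Mmp17, Adamts9 and Adam33. A further 15 members were not tested, all with 14 counts or fewer in each library. Besides those given above these were Adam3 (3, 7 and 3 counts in control, 0 in all IL-4 libraries), Adam32, Adam28, Adam18, Adam1b, Adam21, Adam25, Adam39 and Mmp21.

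The genes that act with these enzymes were read from 7 lists, 121 genes in all. The lists hold activators, other inhibitors, proteins that bind or transport ADAMs, substrates, related proteases and inducers. Of 103 tested, 41 rose (39.8%, against 19.0% of all genes tested), 30 fell (29.1%, against 18.4%) and 32 did not pass the test, with a median log2 fold change of 0.11. The list of activators had 4 of 8 higher and 1 lower. Pcsk5, a proprotein convertase, rose from 21.2 ± 1.35 to 105 ± 6.44 FPKM (log2 fold change 2.48, adjusted p = 4.19e-07). Plau and Plat, the activators of plasmin, rose by 0.62 and 0.50, while Pcsk6 fell by 0.50. Furin, which activates Mmp14 and Mmp11 inside the cell, did not pass the test.

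Other inhibitors and clearance receptors had 3 of 12 higher and 5 lower. Tfpi2, a serine protease inhibitor of the matrix, went from 9.40 ± 1.22 to 67.9 ± 3.84 FPKM (log2 fold change 3.03). Spock3 and Spock1 fell by 3.36 and 1.78 from 13 to 69 counts per control library. Reck, a membrane-anchored MMP inhibitor, and Lrp1, the receptor that clears many of these enzymes, did not pass the test.

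Among 13 genes for proteins that bind or transport ADAMs, 5 rose and 4 fell. The tetraspanins that carry ADAM10 moved apart. Tspan33 rose by 3.67 on the log2 scale (9 to 13 counts in control, 114 to 147 in IL-4 libraries) and Tspan15 fell by 1.24. Tspan10, at 0 to 2 counts in control and 21 to 27 in IL-4 libraries, was at least 9.14-fold higher by the same floor. Sh3pxd2a, an organizer of matrix-degrading cell protrusions, fell by 0.70. Of 26 shed proteins 7 rose and 10 fell. Tnf fell from 5.01 ± 0.462 to 0.463 ± 0.114 FPKM (log2 fold change −3.25), Dll1 by 2.65 and Cxcl16 by 2.24, while Kitl rose by 2.29. Macrophages express Tnf and Cxcl16, and the fall of the macrophage markers given above goes with theirs. Its part was not tested.

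Of 16 substrates of ADAMTS enzymes 8 rose, 4 of them beyond a 2-fold change, and 4 fell, 3 of them beyond it. Among those that fell, Fmod had log2 fold changes of −1.65 to −1.57 as each library was left out. Comp, the substrate of Adamts7 and Adamts12, rose by 2.32, Vwf, cleaved by Adamts13, by 3.08, and fibronectin (Fn1) by 1.26, and Col3a1 is given above. Vwf is also an endothelial marker, and of the 7 markers of endothelium 2 rose, 2 fell and 3 did not pass the test, summing to 12.6 to 13.5 FPKM in control and 14.3 to 16.9 FPKM in IL-4 libraries. Of 7 related metalloproteases and their enhancers 4 rose and 2 fell. Bmp1, which removes the other propeptide of fibrillar collagens, rose from 129 ± 2.53 to 279 ± 10.3 FPKM (1.28), and its enhancer Pcolce2 from 2.53 to 3.06 FPKM in control to 65.1 to 72.3 FPKM in IL-4 libraries (4.74). Pappa, which cleaves IGF-binding proteins, fell by 2.61. Tll1 also fell, with log2 fold changes of −1.54 to −1.24 as each library was left out.

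Of 21 tested inducers and receptors of MMPs, 10 rose and 4 fell. Il1a, at 2 to 5 counts in control and 13 to 20 in IL-4 libraries, rose by 2.40 on the log2 scale, its receptor Il1r1 by 1.12, and Etv4, an ETS factor, fell by 1.21. Stat6, which carries the IL-4 signal, did not pass the test (log2 fold change 0.03), and the receptor subunit Il4ra had a log2 fold change of 0.19 (adjusted p = 0.0378) that fell to 0.02 with library totals, and its call was lost there and when any 1 library other than IL-4 replicate 6 was left out.

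**Figure D5:**
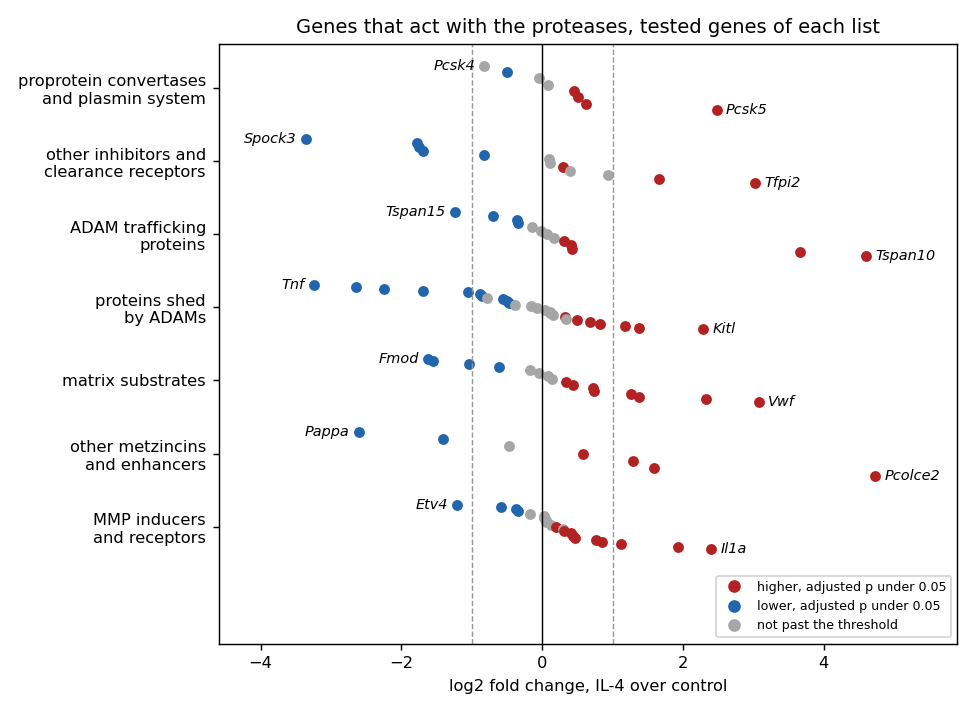
Log2 fold change, IL-4 over control, of the tested genes of 7 lists of genes that act with the proteases, with dashed lines at a 2-fold change and the lowest and highest gene of each list named. Every list holds genes in both directions, from Spock3 at −3.36 to Pcolce2 at 4.74. The point for Tspan10 is a fitted value against control libraries with 0 to 2 reads.

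The study also examined microRNAs of the H19X locus, among them miR-322-5p, so members were searched for their seed sites. A site is the reverse complement of bases 2 to 8 of 6 microRNAs of the locus (miR-450b-5p, miR-450a-5p, miR-542-3p, miR-351-5p, miR-503-5p and miR-322-5p) in the longest 3′ untranslated region annotated for the gene (GENCODE M21). Of the members that rose 11 of 25 (44.0%) held a site, of those that fell 7 of 15 (46.7%) and of those that did not pass the test 9 of 17 (52.9%), against 48.1%, 51.4% and 48.9% of the 12995 tested genes with such a region, in the same classes. Sites for at least 1 microRNA were thus about as frequent in members that fell as in those that rose. The paper's target set was of genes targeted by 2 or more, predicted with TargetScan. Sites for 2 or more were held by 4 of 25 members that rose (16.0%) and 1 of 15 that fell (6.67%). Over all genes these shares were 18.6% and 21.4%. The median length of the region was 1366 and 1883 bases in these members, and 1153 and 1351 over all genes. No test was run on any of these shares. Of the 7 members that fell beyond a 2-fold change, Timp3, Adamts16, Mmp10 and Adam4 held none. Adamts20 held a site for miR-351-5p, and Adamtsl2 and Adamtsl3 held sites for miR-322-5p. The Adamts20 site, at chr15:94320959-94320986, lies far from the 3′ end of this minus-strand gene at chr15:94268314. The site of Adamtsl3 lies near the start of its 3′ region and is shown with the microRNA, capitals marking the seed and its match.
miR-322-5p: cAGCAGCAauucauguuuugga
Adamtsl3 site, chr7:82612499-82612525, plus strand: agctttggcaaggttgtgaTGCTGCTg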

How the data were processed

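RNA was measured by poly-A mRNA-seq (BGISEQ-500) in 6 libraries, 3 per group. The authors cleaned the reads with SOAPnuke, aligned them to mm10 with HISAT, and used Bowtie2 and RSEM for gene levels. The deposited expected counts were estimated by RSEM per gene and were not normalized. The deposited FPKM values were scaled by the authors for transcript length and library size. Whether reads were counted by strand is not given in the sources used here. Of the expected counts 87.0% were whole within 0.001, and they were rounded before testing. A gene absent from a library's table was set to 0, 26 symbols that a spreadsheet had turned into dates were resolved by Entrez number, and 1 entry that names no gene (at most 0.000225% of counts) was left out.

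Genes were filtered with filterByExpr (minimum count 10, minimum total 15), scaled by TMM and tested with the quasi-likelihood F-test of edgeR 4.0.16 in R 4.3.3, IL-4 against control with no covariate, with Benjamini-Hochberg adjustment over all 14009 genes. Calls required an adjusted p under 0.05, and 2-fold calls a log2 fold change beyond 1 as well. Alternatives were DESeq2 1.42.0, upper-quartile scaling, library totals, no filter, unrounded counts, FPKM on the log2 scale with a pseudocount of 1 or 0.1 (limma 3.58.1), and each library left out. The code was tested on simulated data. Tables and figures were made in Python 3.11.15 with pandas 2.3.3, numpy 2.4.6 and matplotlib 3.10.9.

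Members, gene lists and tests were chosen with earlier results of these data known. Named were the members past a 2-fold call, all TIMPs, the 10 members of highest mean FPKM, the 5 largest smaller changes in each direction, and up to 4 genes per list of partners, of which 1 is not reported here. Other genes, among them Adam10, Adam17, Adamts12, Mmp9 and Mmp13, were chosen after their values were seen. Promoters came from the RefSeq table of GRCm38.p6, and microRNAs and sites from RefSeq and GENCODE M21. The 4 small RNA libraries were not analysed here.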

Additional observations from a re-analysis of the deposited data

How the results depend on the processing

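As reported, 10 members were higher and 7 lower past a 2-fold change. On log2(FPKM + 1), which changes the scaling as well as the pseudocount, limma gave 3 and 2, and 26 partner genes rose in place of 41. On log2(FPKM + 0.1) it gave 7 and 4, and library totals gave 7 and 8. Over all genes tested, 809 were higher and 737 lower past a 2-fold change as reported, against 348 and 352 on log2(FPKM + 1). The all-gene counts were 591 and 782 on log2(FPKM + 0.1), and 657 and 961 with library totals. The causes were not tested. Leaving out each library in turn gave 10 to 14 members higher and 5 to 7 lower by 2-fold, 23 to 33 higher and 12 to 14 lower at any fold, and 34 to 47 partner genes higher and 27 to 31 lower. Over all genes, the same fits gave 812 to 835 higher and 699 to 738 lower by 2-fold. No called member or partner gene reversed. Library totals moved the median of all genes to −0.17, and Mmp11, Mmp23 and Adamtsl5 then fell short of a 2-fold rise, while Mmp16 passed a 2-fold fall. Leaving out control replicate 3 and IL-4 replicate 6 together, an alternative chosen after seeing the data, gave 12 members higher and 6 lower by 2-fold, with Timp3 at −0.98. Over all genes that fit gave 835 higher and 730 lower. No paired analysis was possible because the replicate numbers of the 2 mRNA-seq groups do not overlap. Members with few counts, Adam4, Mmp25, Timp4 and Adamts19 among them, are limited by depth.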
